A study of Mus musculus with 8 samples.

Results

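The genes of the mitochondrial ribosome were examined in the gastrocnemius, the large calf muscle, of Hdac5 knockout mice and wild type littermates. Every gene whose array annotation symbol is Mrpl or Mrps followed by a digit was taken, which gave 77 genes on 85 probe sets among the 19938 genes tested. For a gene with several probe sets, the brightest on average across the 8 arrays was used, so no measured difference entered the choice. The 4 knockout arrays and the 4 wild type arrays carried RNA from animals aged 30 weeks on a low-fat chow diet without further treatment. The knockout label names an earlier published Hdac5 line, and it does not say which part of the gene is missing or in which cells. The labels number the samples within a genotype but do not say that each came from a separate animal, so each p-value reflects only how far these samples spread, and that spread may be technical. In bulk muscle, fewer cells of a type and less RNA per cell cannot be told apart. HDAC5 belongs to the class IIa deacetylases and holds back genes driven by MEF2 factors. The study asked about its part in interleukin 6 transcription in muscle.

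The mitochondrial ribosome translates the few messages encoded in mitochondrial DNA, all of them core subunits of the respiratory chain and ATP synthase. Its ribosomal RNAs come from mitochondrial DNA, whereas all of its proteins are encoded in the nucleus, made in the cytosol and imported. The small subunit (Mrps genes) decodes the message, and the large subunit (Mrpl genes) forms peptide bonds and holds the exit tunnel at the inner membrane. About the same set of proteins is present in every tissue, and muscle, with its demand for oxidative phosphorylation, is among the tissues that suffer when one is defective.

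Nuclear genes for mitochondrial proteins are known targets of the factors NRF1, GABP (an ETS factor), YY1 and the oestrogen-related receptors. The sequences before the starts of the member genes were therefore searched, and 6 are shown. In 4 of these members (5.19%) every knockout sample lay below every wild type sample, where 1.99% of all genes did so. These are Mrps14, Mrpl18, Mrpl48 and Mrps7. The others are Mrpl1, the higher member of smallest p, and Mrpl17, which held matches to both NRF1 and ETS letters. RefSeq sequences of build GRCm38.p6 were found for 68 of the 77 genes (74 starts), and the 250 bases before each start were used. The Mrps14 sequence lies at chr1:160194965-160195214 on the plus strand, that of Mrpl18 at chr17:12916092-12916341 on the minus strand, that of Mrps7 at chr11:115603890-115604139 on the plus strand, that of Mrpl1 at chr5:96209865-96210114 on the plus strand and that of Mrpl17 at chr7:105811088-105811337 on the minus strand. Mrpl48 has 4 listed starts, and the most 5′ of those with a match is shown, at chr7:100591415-100591664 on the minus strand. An ETS match was found at another of its starts, which is not printed. Each is printed 5′ to 3′ on the gene's strand, with motif matches in capitals.
Mrps14: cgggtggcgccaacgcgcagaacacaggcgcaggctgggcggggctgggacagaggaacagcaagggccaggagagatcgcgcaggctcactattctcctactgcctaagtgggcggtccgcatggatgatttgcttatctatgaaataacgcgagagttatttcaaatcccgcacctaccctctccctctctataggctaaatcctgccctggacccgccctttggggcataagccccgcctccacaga
Mrpl18: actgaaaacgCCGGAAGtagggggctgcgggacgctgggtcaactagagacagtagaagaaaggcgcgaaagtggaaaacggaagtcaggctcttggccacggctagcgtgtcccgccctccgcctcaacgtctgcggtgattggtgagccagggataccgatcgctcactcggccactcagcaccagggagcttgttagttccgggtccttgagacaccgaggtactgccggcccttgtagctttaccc
Mrpl48: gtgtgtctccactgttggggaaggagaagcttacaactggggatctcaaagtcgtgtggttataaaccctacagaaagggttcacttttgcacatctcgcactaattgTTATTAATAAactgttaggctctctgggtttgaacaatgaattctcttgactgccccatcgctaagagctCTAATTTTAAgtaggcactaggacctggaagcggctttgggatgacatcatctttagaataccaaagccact
Mrps7: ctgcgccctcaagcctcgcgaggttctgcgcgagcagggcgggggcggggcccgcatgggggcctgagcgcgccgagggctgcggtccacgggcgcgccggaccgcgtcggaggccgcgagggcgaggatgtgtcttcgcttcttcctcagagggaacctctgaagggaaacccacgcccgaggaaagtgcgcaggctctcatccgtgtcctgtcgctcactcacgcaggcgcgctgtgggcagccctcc
Mrpl1: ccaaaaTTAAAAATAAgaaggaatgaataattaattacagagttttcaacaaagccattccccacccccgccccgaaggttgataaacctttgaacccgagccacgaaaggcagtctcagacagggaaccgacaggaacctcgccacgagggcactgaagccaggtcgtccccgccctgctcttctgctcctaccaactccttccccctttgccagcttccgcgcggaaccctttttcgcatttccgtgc
Mrpl17: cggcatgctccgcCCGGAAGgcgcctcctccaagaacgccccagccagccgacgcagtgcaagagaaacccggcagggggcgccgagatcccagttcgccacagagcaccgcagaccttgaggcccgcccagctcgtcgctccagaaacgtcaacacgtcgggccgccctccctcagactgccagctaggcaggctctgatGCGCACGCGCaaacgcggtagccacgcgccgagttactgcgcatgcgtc

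Counting the base before the start as -1, the capitals mark ETS letters at -240 to -234 in Mrpl18 and -237 to -231 in Mrpl17, NRF1 letters at -49 to -40 in Mrpl17, and MEF2 letters at -142 to -133 and -72 to -63 in Mrpl48 and at -244 to -235 in Mrpl1. The Mrps14 and Mrps7 windows held no match to any of the 6 motifs searched, which says only that these letters are not in these windows. Over both strands, the ETS letters CCGGAAG stood in 17 of the 74 member promoters (22.97%), against 9.41% of the 19177 promoters of tested genes. The NRF1 letters (GCGCA, any base N, then GCGC) stood in 10 (13.5%, against 5.63%), and in Mrpl17 both occurred, without overlapping. The YY1 letters AANATGGC stood in 7 (9.46%, against 3.71%) and the element AAGGTCA of the oestrogen-related receptors in 3 (4.05%, against 3.39%). The E-box CACGTG stood in 7 promoters (9.46%, against 6.99%), which belong to only 5 genes. The MEF2 motif, bound by the factors that HDAC5 represses, was found in 2 (2.70%, against 2.35%). A match describes the letters and does not show that a factor binds there.

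No mitochondrial ribosomal protein gene passed the test between genotypes. In limma, with Benjamini-Hochberg adjustment over all genes and a threshold of 0.05, 0 of the 77 passed, where 0.0652% of all genes did (13 genes; 0.0401% higher and 0.0251% lower in knockout muscle). The smallest adjusted p among the members was 0.198, for Mrps14. The means of 35 members were higher in knockout muscle, where 51.4% of all genes were, and those of 42 were lower, where 48.6% were. The median change was -0.014 on the log2 scale, against 0.0030 over all genes. Scaling each array to its median moved every gene up alike, and gave 39 higher members with a median of 0.0010, against 0.018 over all genes, 11669 of which were then higher. Quantile normalization gave 33 higher members with a median of -0.028, against 0.0067 over all genes. The members' median thus lay below that of all genes by a small amount under each of the 3 scalings, and its difference from all genes was not tested.

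The changes were small. In 63 members the knockout and wild type means differed by less than 0.1 on the log2 scale, as they did in 74.5% of all genes. The 95% interval of the change lay between -0.3 and 0.3 in 70 of the 77, and the median distance from the estimate to either bound was 0.14. The lowest bound of any interval was -0.52, in Mrps14, and the highest was 0.39, in Mrps30. Within a genotype the members varied a little less than other genes, with a median SD of 0.083 in knockout and 0.076 in wild type samples, against 0.096 and 0.094 over all genes.

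**Figure D1:**
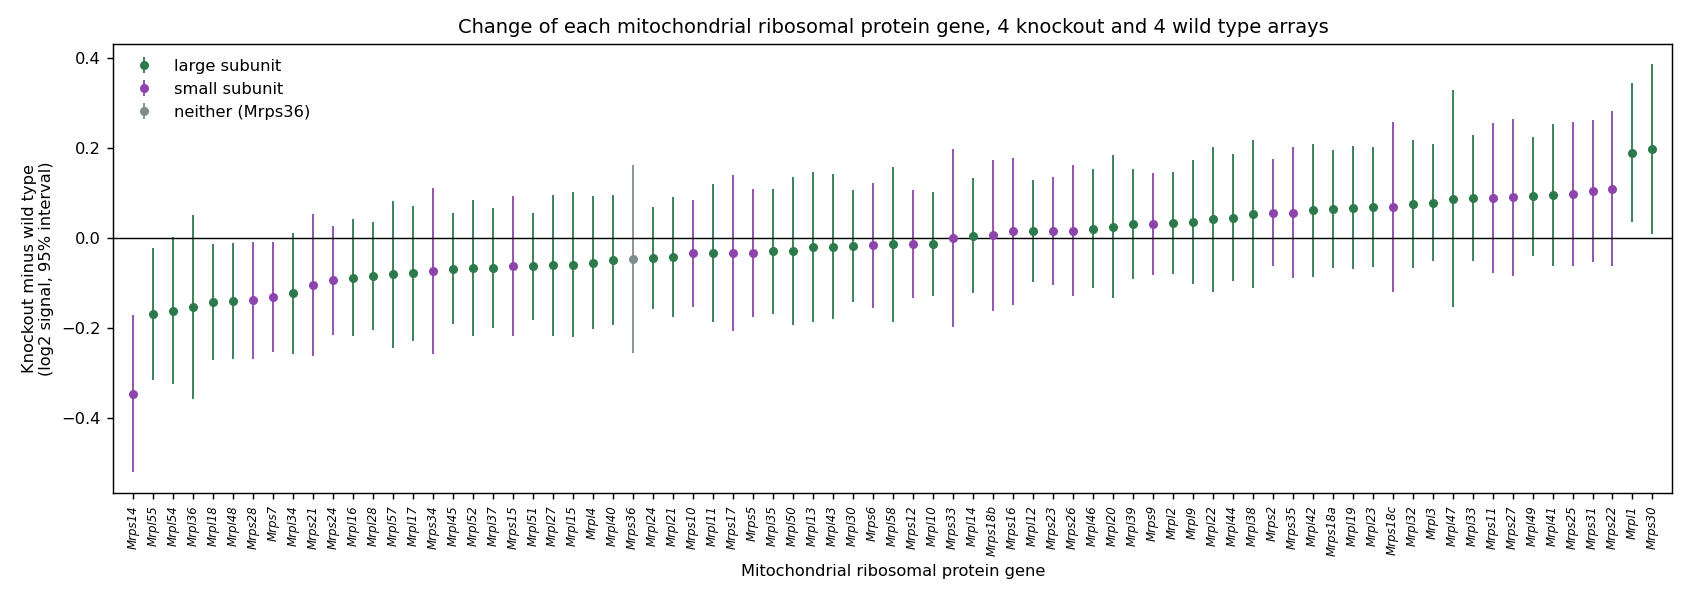
The horizontal axis lists the 77 mitochondrial ribosomal protein genes in order of change, and the vertical axis gives knockout minus wild type on the log2 scale, with points for the estimate, bars for limma's 95% interval and colours for the subunit. Mrps14, at -0.35, lies apart at the low end, and most other intervals span 0.

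At an unadjusted p under 0.05 in limma, 8 members differed, where 7.90% of all genes did. Of these, 6 were lower in knockout muscle, which is 7.79% of the members against 3.18% of all genes, and 2 were higher, which is 2.60% against 4.72%. Scaling each array to its median left 2 lower and 2 higher, where 2.33% and 5.63% of all genes were so. Quantile normalization gave 10 lower and 2 higher, where 3.76% and 5.96% of all genes were so. Leaving out samples one at a time, the lower count was 3 in the absence of knockout 1, knockout 4, wild type 2 or wild type 3. It was 2 in the absence of knockout 3 or wild type 1, and 5 and 8 in the absence of knockout 2 and wild type 4. The higher count was 0 in the absence of knockout 1, knockout 2, wild type 2 or wild type 4, 3 in that of knockout 4, and 2 in the other cases. Over these 8 fits the share of all genes ran from 2.34% to 4.72% lower and from 3.68% to 5.86% higher. In 4 members every knockout sample lay below every wild type sample (5.19%, where 1.99% of all genes did so), and in 0 every knockout sample lay above (where 2.91% did).

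Mrps14 showed the largest difference of the 77. It encodes the relative of bacterial S14 in the head of the small subunit. Its signal was 9.77, 9.66, 9.42 and 9.46 in knockout samples 1 to 4 and 10.004, 9.96, 9.87 and 9.86 in wild type samples 1 to 4. All knockout samples were below all wild type samples, although the gap between the closest pair was smaller than the spread of the knockout samples. The means were 9.58 ± 0.16 and 9.92 ± 0.07 (SD, n = 4 each), a difference of -0.35 (SE 0.080), and the ratio of knockout to wild type signal was 0.787 (95% bounds 0.697 and 0.888). The limma p was 0.0010 unadjusted and 0.198 adjusted over all genes. It was the only one of the 8 members to stay under an unadjusted 0.05 in each of the 8 fits with 1 sample left out, with changes between -0.41 and -0.29. Its adjusted p ran from 0.0704 to 0.414 over the 16 alternative settings and did not pass in any.

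**Figure D2:**
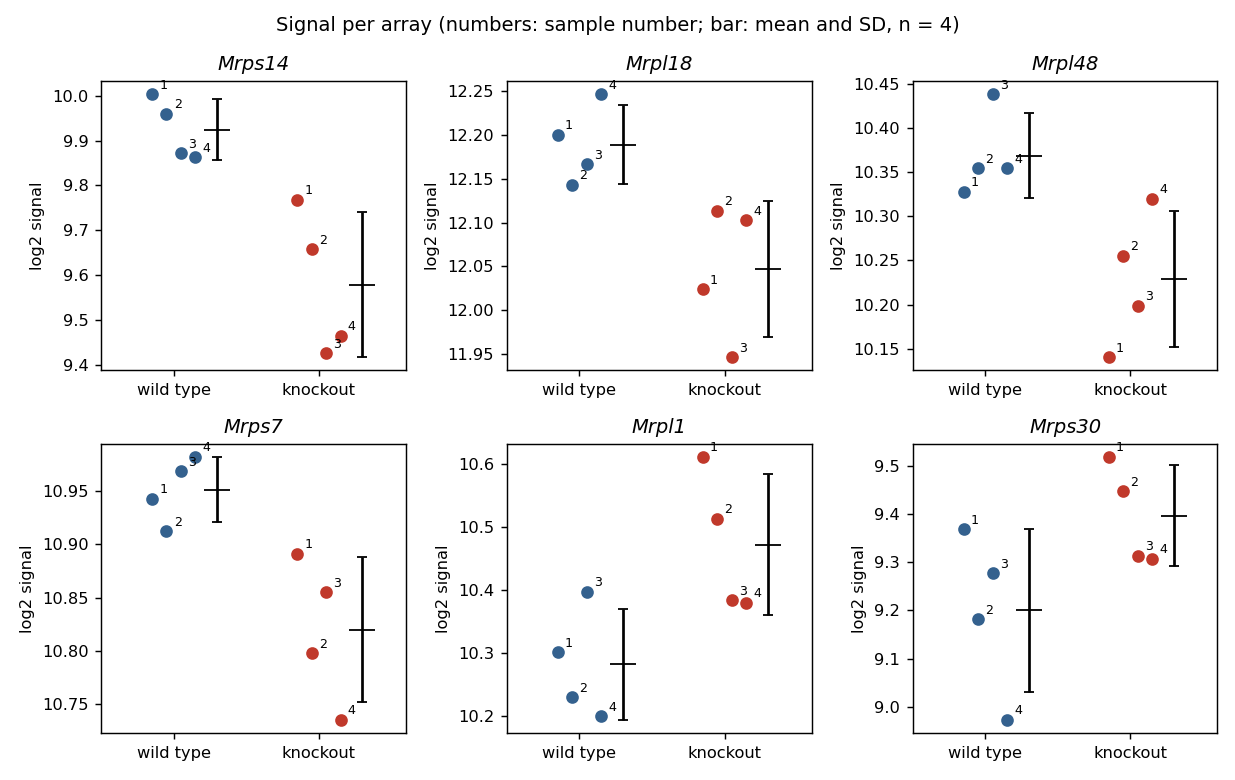
Each panel gives the log2 signal of 1 gene in the 4 wild type (blue) and 4 knockout (red) samples, with the sample number beside each point and a bar for the mean and SD; the vertical axes do not start at 0 and differ between panels. In Mrps14, Mrpl18, Mrpl48 and Mrps7 the genotypes do not overlap, and in Mrpl1 and Mrps30 they do.

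Another small subunit head protein, Mrps7, the relative of bacterial S7, was lower by less. It measured 10.89, 10.80, 10.86 and 10.74 in knockout samples 1 to 4 and 10.94, 10.91, 10.97 and 10.98 in wild type samples 1 to 4. The groups did not overlap, though knockout sample 1 lay close under the lowest wild type sample. The difference was -0.13 (SE 0.056, unadjusted p = 0.0379, adjusted p = 0.590 in limma). Mrps28, another small subunit protein, measured 10.52, 10.54, 10.53 and 10.55 in knockout samples and 10.73, 10.69, 10.72 and 10.54 in wild type samples 1 to 4. Wild type sample 4 lay among the knockout samples, and the difference of -0.14 (SE 0.059) had an unadjusted p under 0.05 in 1 of the 8 fits with a sample left out.

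Several small subunit genes had higher means. Mrps22, in which mutations cause disease in infancy, differed by 0.11 (SE 0.079), Mrps31 by 0.10 (SE 0.072) and Mrps25 by 0.099 (SE 0.073). In limma their adjusted p was 0.795, 0.782 and 0.804. Their ranges overlapped, with Mrps22 at 9.88 to 10.16 in knockout and 9.75 to 10.03 in wild type samples. Mrps12, whose bacterial relative S12 lines the decoding site, was at 9.35 ± 0.03 in knockout and 9.36 ± 0.06 in wild type samples (SD, n = 4 each). Over the 26 small subunit genes 13 means were higher and 13 lower, the median change was 0.0030, and 0 passed over all genes. At an unadjusted p under 0.05 there were 3 lower and 0 higher, where 3.18% and 4.72% of all genes were so. The median was -0.0053 under quantile normalization, so its sign turned.

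In the large subunit, 22 of 50 genes had a higher mean in knockout muscle and 28 a lower one, with a median of -0.019 and 0 past the adjusted threshold. The central protuberance is the part of the large subunit that faces the head of the small one. Of the 7 measured genes classed there, 3 reached an unadjusted p under 0.05 in limma, 2 lower and 1 higher (3.18% and 4.72% of all genes). Mrpl18, the relative of the bacterial protein that holds 5S RNA, measured 12.02, 12.11, 11.95 and 12.10 in knockout samples 1 to 4 and 12.20, 12.14, 12.17 and 12.25 in wild type samples 1 to 4. Mrpl48, classed as having no bacterial relative, measured 10.14, 10.26, 10.20 and 10.32 against 10.33, 10.35, 10.44 and 10.35. In both genes the genotypes were separate, by a narrow margin between the nearest samples. Each differed by -0.14 (SE 0.059), and adjusted p in limma was 0.566 for Mrpl18 and 0.586 for Mrpl48.

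Mrps30 went the other way. Despite its name, this protein sits in the central protuberance of the large subunit. It measured 9.52, 9.45, 9.31 and 9.31 in knockout samples and 9.37, 9.18, 9.28 and 8.97 in wild type samples 1 to 4. Wild type sample 1 lay above knockout samples 3 and 4, and wild type sample 4 lay below all others. The difference was 0.20 (SE 0.087, unadjusted p = 0.0424, adjusted p = 0.609 in limma). Over the 7 measured genes classed in the central protuberance, 3 means were higher and 4 lower.

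Mrpl1, which forms the mobile stalk that guides spent tRNA away, was the other member with a higher mean at an unadjusted p under 0.05. It measured 10.61, 10.51, 10.38 and 10.38 in knockout samples 1 to 4 and 10.30, 10.23, 10.40 and 10.20 in wild type samples 1 to 4, so wild type sample 3 lay above knockout samples 3 and 4. The difference was 0.19 (SE 0.071, unadjusted p = 0.0202, adjusted p = 0.496 in limma). The opposite stalk, which recruits translation factors, gave other values. Mrpl12, its best known protein, which is also reported to bind the mitochondrial RNA polymerase, measured 10.82 ± 0.03 in knockout and 10.80 ± 0.03 in wild type samples (SD, n = 4 each), with a 95% interval of the difference from -0.098 to 0.13. Mrpl54 had a lower mean by 0.16 (SE 0.075, adjusted p = 0.634), with wild type samples 1 (10.43) and 4 (10.32) below knockout sample 2 (10.45).

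Of the 9 genes at the exit tunnel 5 means were higher, the median was 0.030 and 0 reached an unadjusted p under 0.05 in limma. Mrpl45, which ties the ribosome to the inner membrane, was at 10.73 ± 0.05 in knockout and 10.80 ± 0.06 in wild type samples (SD, n = 4 each), a difference of -0.068 (SE 0.057). Mrpl47 had the largest knockout SD of these 77 genes (0.25), with 9.81, 9.90, 9.48 and 9.37 in knockout samples 1 to 4, and differed by 0.088 (SE 0.110). Mrpl22 was at 7.59 ± 0.03 and 7.55 ± 0.15 (SD, n = 4 each). Its difference of 0.042 was -0.024 without wild type sample 4, whose signal was 7.35.

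Among the large subunit genes not classed in these regions, Mrpl55 and Mrpl34 had lower means. Mrpl55 measured 10.62 in knockout sample 1 and 10.39 to 10.41 in the other knockout samples, against 10.55 to 10.71 in wild type samples. Its difference was -0.17 (SE 0.067, unadjusted p = 0.0273, adjusted p = 0.542 in limma), and knockout sample 1 overlapped the wild type range. Mrpl34 differed by -0.12 (SE 0.062, adjusted p = 0.670). Higher means were seen for Mrpl49, Mrpl33 and Mrpl3, the last a relative of a bacterial protein that reaches towards the site of peptide bond formation. They differed by 0.093, 0.089 and 0.079, with limma adjusted p-values of 0.771, 0.798 and 0.809. Mrpl58, a peptidyl-tRNA hydrolase built into the ribosome, held the median change of the 77, at -0.014 (SE 0.079).

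The 3 relatives of bacterial S18 did not differ detectably between genotypes. Mrps18a, found in the large subunit, was at 10.43 ± 0.03 in knockout and 10.37 ± 0.09 in wild type samples, Mrps18b at 10.45 ± 0.16 and 10.44 ± 0.06, and Mrps18c at 10.21 ± 0.17 and 10.14 ± 0.10 (SD, n = 4 each). The 95% intervals of their differences ran from -0.066 to 0.20, from -0.16 to 0.17 and from -0.12 to 0.26. Among the 3 highest mean signals were, after Mrpl18, those of Mrpl51 and Mrps15, which each differed by -0.063 (SE 0.054 and 0.071). Among the 3 lowest were, after Mrpl22, those of Mrps11, which differed by 0.089 (SE 0.076), and Mrpl46, which differed by 0.021 (SE 0.061) and by -0.011 without knockout sample 2. Mrps36, since assigned to the 2-oxoglutarate dehydrogenase complex rather than the ribosome, differed by -0.046 (SE 0.096).

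The members were also divided by whether they were classed as having a bacterial relative. Of the 48 so classed, 20 means were higher in knockout muscle and the median change was -0.019. Of the other 29, 15 were higher and the median was 0.015. The difference between these classes was not tested. Of the 6 members lower at an unadjusted p under 0.05 in limma, 5 were classed as having a bacterial relative, as were 48 of all 77. Of the 2 higher members, 1 was in each class. Over all genes 3.18% were lower and 4.72% higher at that threshold. Where a gene had more than 1 probe set, as 8 members did, the probe sets gave changes of like sign in all but Mrpl51 (-0.063 on the one used and 0.042 on the other) and Mrps33 (-7.5e-05 and 0.014).

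Within each genotype the members shifted together between samples, as did, to differing degrees, other genes of mitochondrial translation. On knockout sample 4, 67 of the 77 genes lay below their own knockout mean, and on wild type sample 4, 66 lay below their own wild type mean, where 42.5% and 54.9% of all genes did. On knockout sample 1 and wild type sample 1 the counts were 18 and 12 (53.6% and 48.5% of all genes). The mean signal of the 77 genes was 10.06, 10.02, 9.99 and 9.92 in knockout samples 1 to 4 and 10.05, 10.01, 10.04 and 9.93 in wild type samples 1 to 4. The genotypes overlapped over nearly the whole of this range, with sample 4 the lowest of each. Translation factors had median deviations of -0.095 and -0.090 on knockout and wild type samples 4 and of 0.081 and 0.062 on the samples numbered 1. Assembly factors had -0.049 and -0.080 on samples 4 and 0.082 and 0.062 on samples 1. Mitochondrial tRNA synthetases shifted less, with -0.018 and -0.046 on samples 4 and 0.045 and 0.035 on samples 1. Genes of mitochondrial DNA and its transcription had -0.055 and -0.055 on samples 4 and 0.052 and 0.039 on samples 1. Respiratory chain subunits had -0.033 and -0.017, and 0.021 and 0.0069. Cytosolic ribosomal proteins had -0.059 and 0.011, and 0.046 and 0.033. The pattern was thus not limited to the ribosomal proteins or to mitochondrial translation.

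The 75th percentile of all probe sets moved with this pattern. It was lowest on wild type sample 4 (9.24) and knockout sample 4 (9.28), and between 9.31 and 9.37 on the other arrays. The 25th percentile was highest on wild type sample 4 (6.55) and knockout sample 4 (6.53), and between 6.45 and 6.51 on the others. Dim and bright probe sets thus moved in opposite directions, and the share of all genes includes both. Quantile normalization gives all arrays 1 distribution. After it, 53 of the 77 genes lay below their genotype mean on knockout sample 4, where 42.5% of all genes did. On wild type sample 4 the count was 45, where 50.7% of all genes did. On the samples numbered 1 the counts were 38 in knockout and 31 in wild type (53.6% and 49.5% of all genes). The median deviation on knockout sample 4 was -0.079 as deposited and -0.045 after quantile normalization, and on wild type sample 4 it was -0.080 and -0.025. With both samples numbered 4 left out, a setting added once the values had been seen, the counts at an unadjusted p under 0.05 were 6 lower and 2 higher (4.58% and 4.49% of all genes), and 0 members passed after adjustment.

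**Figure D3:**
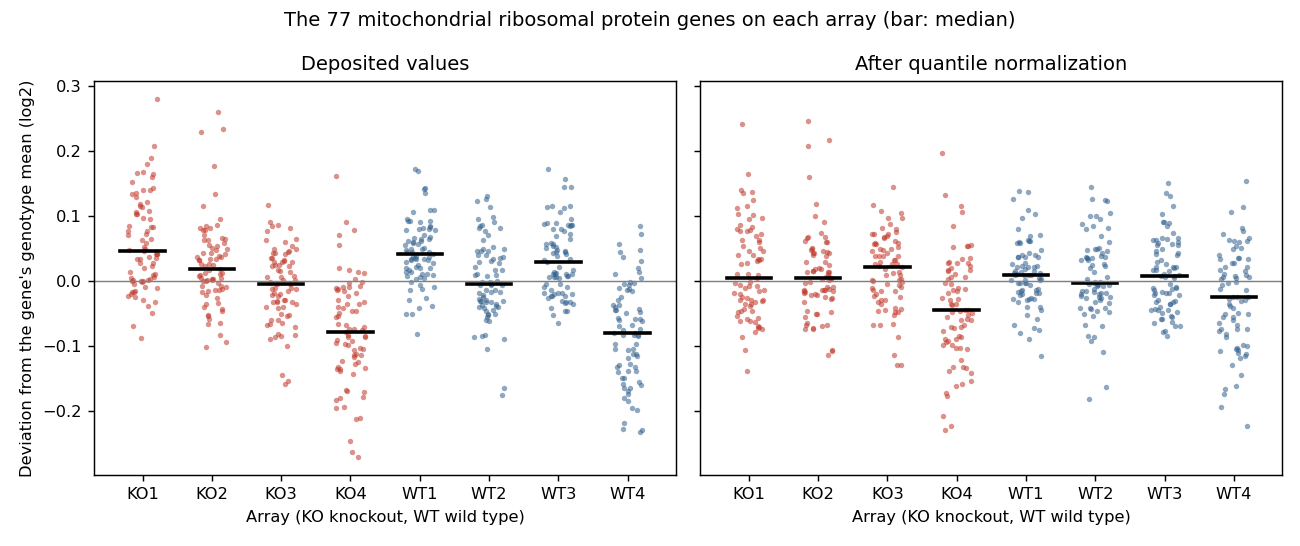
Each point is 1 of the 77 genes on 1 array, as its deviation from the gene's mean in that genotype on the log2 scale, with a bar for the median; the left panel uses the deposited values and the right panel the quantile-normalized ones. Samples numbered 4 lie lowest in both genotypes, with medians of -0.079 and -0.080 on the left and -0.045 and -0.025 on the right.

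The other genes of mitochondrial translation were read beside the ribosomal proteins. Of the ribosome's subunits under other names, 4 were measured, and all 4 had higher means in knockout muscle with 0 past any threshold. Ptcd3, an RNA-binding small subunit protein, differed by 0.11 (SE 0.073), Gadd45gip1 of the large subunit by 0.097 (SE 0.076) and Dap3, the GTP-binding protein of the small subunit head, by 0.044 (SE 0.063). Of 31 assembly and ribosomal RNA modification factors, 21 means were higher (18 under quantile normalization) and 0 passed over all genes. At an unadjusted p under 0.05, 2 were higher, where 4.72% of all genes were. Gtpbp10, a GTPase that helps mature the large subunit, measured 10.12, 9.95, 9.89 and 9.90 in knockout and 9.88, 9.73, 9.80 and 9.67 in wild type samples 1 to 4. Its groups did not overlap, by a margin of under 0.01, and it differed by 0.20 (SE 0.070, adjusted p = 0.467 in limma). Trmt2b, a methyltransferase for mitochondrial RNA, differed by 0.18 (SE 0.069, adjusted p = 0.503), and Fastkd2, which the large subunit needs for assembly, by 0.16 (SE 0.080, adjusted p = 0.660).

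Translation factors, tRNA synthetases and the transcription machinery of mitochondrial DNA also held no gene past the adjusted threshold. Of 21 translation factors and activators 16 means were higher, with a median of 0.060. Qrsl1, a subunit of the enzyme that makes glutaminyl-tRNA, differed by 0.14 (SE 0.067), Guf1, an elongation factor homologue, by 0.13 (SE 0.082) and Mtif2, the initiation factor, by 0.12 (SE 0.062). Of 18 mitochondrial tRNA synthetases 13 means were higher, with a median of 0.021. Sars2 and Tars2, for serine and threonine, differed by 0.083 (SE 0.060) and 0.082 (SE 0.067), and Mars2, for methionine, by -0.070 (SE 0.054). In neither list did a gene reach an unadjusted p under 0.05 in limma. Of 20 genes of mitochondrial DNA replication, transcription and RNA processing 15 means were higher, with a median of 0.054. At an unadjusted p under 0.05 there were 2 higher, where 4.72% of all genes were. These were the helicase Twnk by 0.22 (SE 0.076, adjusted p = 0.461 in limma) and the elongation factor Tefm by 0.20 (SE 0.090, adjusted p = 0.611). The polymerase Polrmt differed by 0.12 (SE 0.058).

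The nuclear-encoded subunits of the respiratory chain, which join the products of the mitochondrial ribosome, had lower means. Of 73, 56 were lower and 17 higher (21 higher under quantile normalization and under median scaling), with a median of -0.053. At an unadjusted p under 0.05, 10 were lower and 1 was higher, where 3.18% and 4.72% of all genes were so. After adjustment over all genes 0 passed. Cox6a2, a heart and muscle isoform within cytochrome c oxidase, measured 13.03, 12.94, 12.93 and 12.89 in knockout and 13.26, 13.19, 13.37 and 13.29 in wild type samples 1 to 4, with no overlap. It differed by -0.33 (SE 0.060, adjusted p = 0.0763 in limma), and passed with adjusted p-values of 0.0490 with dim probe sets left out and 0.00834 with a trended and robust eBayes. Cox8b, from the same enzyme, differed by -0.19 (SE 0.053, adjusted p = 0.338), and the complex I subunit Ndufc1 by -0.18 (SE 0.060, adjusted p = 0.440). Cox8b passed with a trended and robust eBayes (adjusted p = 0.0427). Cytosolic ribosomal proteins also had more lower than higher means, 39 against 16 of 55, with a median of -0.041. At an unadjusted p under 0.05, 5 were lower and 0 higher (3.18% and 4.72% of all genes), and 0 passed the adjusted threshold. The differences between these lists and the 77 genes were not tested.

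**Figure D4:**
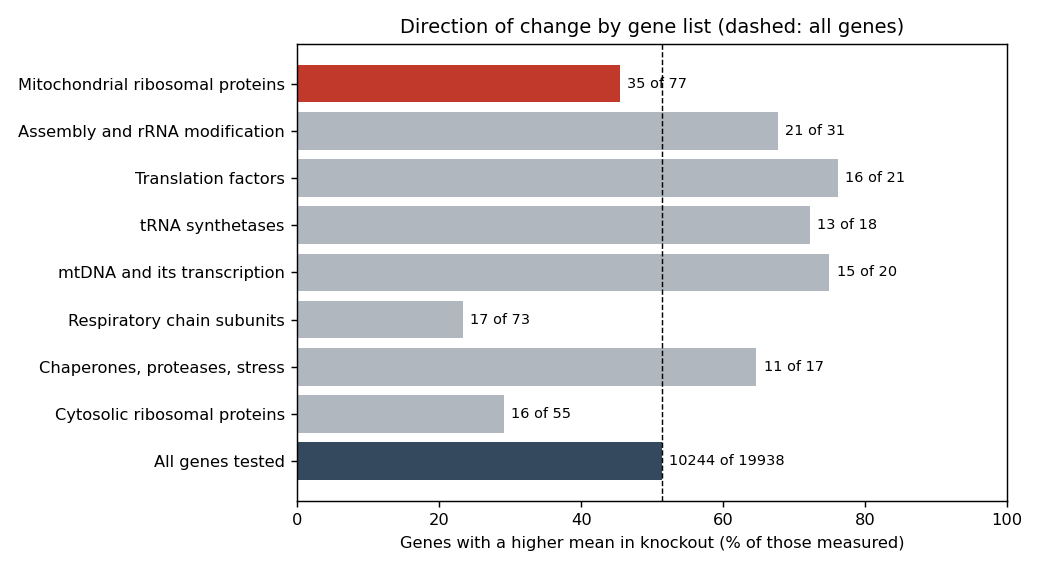
Bars give the share of measured genes whose mean was higher in knockout muscle, in percent, for each gene list, with the count beside each bar and a dashed line for all genes. The mitochondrial ribosomal proteins (35 of 77) lie between the translation factors (16 of 21) and the respiratory chain subunits (17 of 73).

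Nuclear regulators of these genes were split, with 6 of 12 means higher and 0 past the adjusted threshold. Esrrg, an oestrogen-related receptor, measured 9.73, 9.82, 9.74 and 9.78 in knockout samples and 9.99, 9.99, 10.02 and 9.81 in wild type samples 1 to 4, so wild type sample 4 lay within the knockout range. It differed by -0.18 (SE 0.062, unadjusted p = 0.0126, adjusted p = 0.461 in limma). Nrf1, which binds many promoters of mitochondrial genes, measured 8.44 to 8.54 in knockout and 8.56 to 8.65 in wild type samples, without overlap, and differed by -0.10 (SE 0.054, adjusted p = 0.698). Myc differed by -0.21 (SE 0.121). Of 17 mitochondrial chaperones, proteases and stress genes 11 means were higher, and 0 reached an unadjusted p under 0.05. The stress factor Atf5 differed by 0.14 (SE 0.074), the asparagine synthetase Asns by 0.17 (SE 0.119) and Ddit3 by -0.091 (SE 0.052).

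The labels and the makeup of the tissue were checked. Hdac5 measured 8.31 to 8.39 in knockout and 9.76 to 9.94 in wild type samples (limma difference -1.50, SE 0.059, adjusted p = 1.74e-07; exact 2-sided permutation p = 0.0286, the smallest that 4 against 4 allows). The 12 skeletal muscle markers included genes of fast fibres, such as Myh4, Tnnt3 and Actn3. Their means were 14.24 to 14.29 in knockout and 14.28 to 14.30 in wild type samples. All 12 were lower in knockout muscle, with changes from -0.052 to -0.0063 and 0 at an unadjusted p under 0.05 in limma. Under quantile normalization 5 of the 12 were higher, and under median scaling 2 were. Slow fibre genes had lower means in 9 of 10 cases, all 9 at an unadjusted p under 0.05 in limma, and the other gene was higher by 0.35, also under 0.05. After adjustment 0 of the 10 passed. Their mean was 10.82 to 11.41 against 11.42 to 11.81. Macrophage markers had higher means in 11 of 12 genes, 8 of them at an unadjusted p under 0.05 in limma (8.47 to 8.79 against 8.18 to 8.52) and fibroblast markers in 9 of 9, 5 of them under 0.05 (8 of 9 higher under quantile normalization; 10.53 to 10.90 against 10.40 to 10.71). In both lists 0 passed after adjustment. Over all genes 3.18% were lower and 4.72% higher at an unadjusted p under 0.05 in limma. Means were higher in 3 of 7 adipocyte, 3 of 8 endothelial, 0 of 5 Schwann cell and 0 of 2 red blood cell markers. The part of fibre type and cell makeup in the small differences of the ribosomal protein genes was not tested.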

How the data were processed

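RNA (150 ng per array, integrity number above 8, per the labels) from 8 muscle samples was hybridised to Affymetrix mouse gene arrays. The authors deposited log2 probe set signals made with Affymetrix Expression Console version 4.0, per the submitters' processing notes. Background correction, summarisation and normalization were not given in the sources used here. The log2 scale was read from the values. Array medians lay between 7.69 and 7.77, and arrays correlated at 0.988 to 0.995. The number of arrays limits the precision. A signal describes 1 probe set, so signals of different genes are not compared as transcript levels.

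Of 35556 probe sets, 21789 carried 1 gene symbol, 1621 several and 12146 none in the platform annotation. Of the first, 21698 matched the RefSeq gene table by Entrez identifier, and 0 symbols changed. Knockout minus wild type was fitted with limma 3.58.1 (lmFit, eBayes) in R 4.3.3 over 19938 genes, with genotype as the only term and Benjamini-Hochberg adjustment. Values were not normalized again, and all 77 members lay above the limit on dim probe sets used as an alternative (the 25th percentile of gene means). The fit was run on simulated data, in which genes varied independently and the changes set were larger than any seen in the 77 members. That simulation says nothing of smaller changes or of shifts shared between genes. SE is limma's moderated standard error. Alternatives were quantile normalization, median scaling, a dim filter, trended and robust eBayes, array weights, the mean of a gene's probe sets, a replicate block and leaving out samples.

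The members, gene lists and rules were chosen with earlier results of these data known. Named were Hdac5, the 8 members of smallest p in each direction, the 3 with the highest and the 3 with the lowest mean signal, members whose probe sets differed in sign, Mrps18a to Mrps18c and the 3 genes of smallest p in each related list. Mrpl12, Mrpl45, Mrpl47, Mrpl58, Mrps12 and Mrps36 were added after their values were seen.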

Additional observations from a re-analysis of the deposited data

Results flagged for a closer look

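In 6 of the 112 groups of 4 samples examined for the named genes, 1 sample stood far from the other 3, where chance alone gives about 5%. Among the members these were Mrpl55 in knockout sample 1 (10.62), which lay above the other knockout samples and within the wild type range, and Mrps12 in wild type sample 1 (9.45), which lay above all other samples. Among the other named genes it was Hdac5 in knockout sample 4 (8.39), above the other knockout samples but still below every wild type sample. Gadd45gip1 in knockout sample 4 (9.32) lay below the other knockout samples, Sars2 in wild type sample 1 (8.89) above the other wild type samples, and Esrrg in wild type sample 4 (9.81) below the other wild type samples.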

How the results depend on the processing

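Over the 16 alternative settings, 0 of the 77 genes passed the adjusted threshold in each, and Hdac5 stayed lower and past it in each. At an unadjusted p under 0.05, the count of lower members was 2 after median scaling and 10 after quantile normalization, and the count of higher members was 1 with array weights. With 1 sample left out, the lower count ran from 2 to 8 and the higher count from 0 to 3. The median change ran from -0.028 (quantile normalization) to 0.014 (without knockout sample 4), and it was 0.0073 without wild type sample 1. Median scaling moved all genes up alike, to a median of 0.018 over all genes and 0.0010 over the members. The causes of the other shifts were not tested.

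Whether same-numbered samples are paired is not given by the labels, and the values do not settle it. Over all genes, deviations of same-numbered samples correlated at 0.34, -0.11, -0.15 and 0.34. Each sample had 4 of the other genotype to match, and 4 of the 8 samples correlated best with their own number. With the replicate block, 0 members passed, 7 were lower and 2 higher at an unadjusted p under 0.05, and Mrps14 had an adjusted p of 0.0704.

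Of the 31 named members, 7 with changes near 0 turned sign in some setting. Mrps33 was 0.0068 with the mean of its probe sets, 0.015 after median scaling, 0.00083 after quantile normalization, 0.042 without both samples numbered 4 and -0.093 to 0.065 with 1 sample left out. Mrps18b was -0.0088 with array weights, -0.0061 after quantile normalization and -0.042 to 0.065 with 1 sample left out. Mrpl22 was -0.011 without both samples numbered 4 and -0.024 to 0.090 with 1 left out, and Mrpl46 -0.011 to 0.065 with 1 left out. After median scaling Mrpl58 was 0.0010 and Mrps12 was 0.0016, and with 1 left out they ran from -0.091 to 0.030 and from -0.028 to 0.017. Mrps36 was 0.032 with array weights, 0.064 without both samples numbered 4 and -0.12 to 0.036 with 1 left out.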

Other observations

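Mrpl53, a large subunit protein, stood outside the comparison because its probe set also carries the symbol of Ccdc142. That probe set measured 8.69, 8.70, 8.69 and 8.69 in knockout samples 1 to 4 and 8.77, 8.76, 8.74 and 8.75 in wild type samples 1 to 4. Every knockout sample lay below every wild type sample, although the difference was -0.057 on the log2 scale. The SD within a genotype was 0.0071 in knockout and 0.012 in wild type samples, where the median member had 0.083 and 0.076. Which of the genes gave the signal cannot be told from 1 probe set.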
